A study of Homo sapiens with 8 samples.

Results

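The genes described here are 35 genes of blood and lymphatic vessels, taken by their symbols in the platform's probe annotation. A probe set carried 34 of the 35 symbols, out of 17491 genes with a symbol on the array, and VEGFD was not analysed here. Each of the 34 genes had 1 probe set. By role they fall into 5 measured ligands, 7 genes of lymphatic endothelium and 22 genes of blood vessels or of endothelium at large.

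RNA of lymph nodes was hybridized to 8 human Affymetrix arrays, of which 4 held vehicle samples and 4 doxycycline samples. Both groups were BALB/c nude mice, which lack a thymus, and both had SkMel147 tumours under the skin. SkMel147 is a line of human melanoma cells and the 1 line used here. The doxycycline group received the drug in drinking water from a tumour volume of about 750 mm3 so that the tumour cells would make Omomyc, a mutant dimerization domain of MYC that acts as a dominant negative, and the other group received the vehicle in the same way. Nodes with metastases were taken 2 days after treatment, according to the sample labels. The design text of the series speaks of excised melanomas, and the labels were followed, so the tissue behind every value rests on them. The promoter that drives Omomyc, the doxycycline dose and the age of the mice remain not given in the sources used here. Because the labels name no control cells without the transgene, an effect of doxycycline on the host and an effect of Omomyc cannot be told apart.

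Endothelial cells line every vessel and are held together by junction proteins such as VE-cadherin. Vessels grow when ligands of the VEGF family, released by tumour and stromal cells, bind receptor tyrosine kinases on endothelium, while angiopoietins acting on TIE2 set how stable a vessel is. Lymphatic endothelium is specified by the transcription factor PROX1 and depends on VEGF-C and VEGF-D acting through VEGFR3. In a lymph node, lymphatic sinuses carry the arriving lymph and tumour cells, and high endothelial venules admit lymphocytes from blood.

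In a node from a mouse, the vessels are host tissue and the tumour cells are human, and whole nodes were homogenized. How far the human probes also read mouse transcripts was not measured, so the value of a vessel gene can hold signal of both species. In such bulk tissue, fewer cells of a type and less RNA per cell cannot be told apart. Values are log2 expression on the RMA scale, on which 1 unit is a factor of 2, and brightness depends on the probes as well as on the transcript.

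No vessel gene passed the test between the groups. Of the 34 genes, 0 passed an adjusted p under 0.05 in limma with Benjamini-Hochberg adjustment over all genes, where the background was 0% of 17491 genes, and the adjusted p of the 34 genes lay between 0.987 and 1.00. At an unadjusted p under 0.05 there was 1 vessel gene, TEK, against 3.8% of all genes. TEK was the 1 vessel gene with a difference above 0 at that level, against 2.49% of all genes, and 0 vessel genes had one below 0, against 1.31%. The 4 doxycycline and 4 vehicle values overlapped for all 34 genes, while they did not overlap for 2.62% of all genes. A difference above 0 was found for 22 of the 34 genes, or 64.7%, against 55.5% of all genes. Without vehicle replicate 1, described below, it was 18 or 52.9%, against 50.8%. The 2 shares of all genes are the background of every count above and below 0 that follows. The 95% confidence intervals of the 34 differences all lay between -0.90 and 0.97. With all 8 arrays, each interval thus left out a 2-fold change of the array signal in either direction, as did those of 97.8% of all genes. How far that signal follows the vessel transcripts of the mouse was not measured. For 21 of the 34 genes the interval also lay inside 0.5 log2 units on both sides of 0. With any 1 array left out, 32 to 34 intervals stayed inside 1 log2 unit, and with the unmoderated statistic 32 did.

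For 18 vessel genes the value lay above the array's own median in all 8 arrays, for 11 it lay below in all 8, and for 5 it lay on either side. The span between the lowest and the highest of the 8 arrays went from 0.23 log2 units for VEGFB to 1.45 for ESAM, and 6 genes spanned over 1 unit: ESAM, NRP2, NRP1, STAB2, PECAM1 and TEK. The median SD within a group was 0.21 with vehicle and 0.18 with doxycycline, against 0.22 and 0.17 over all genes.

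**Figure D1:**
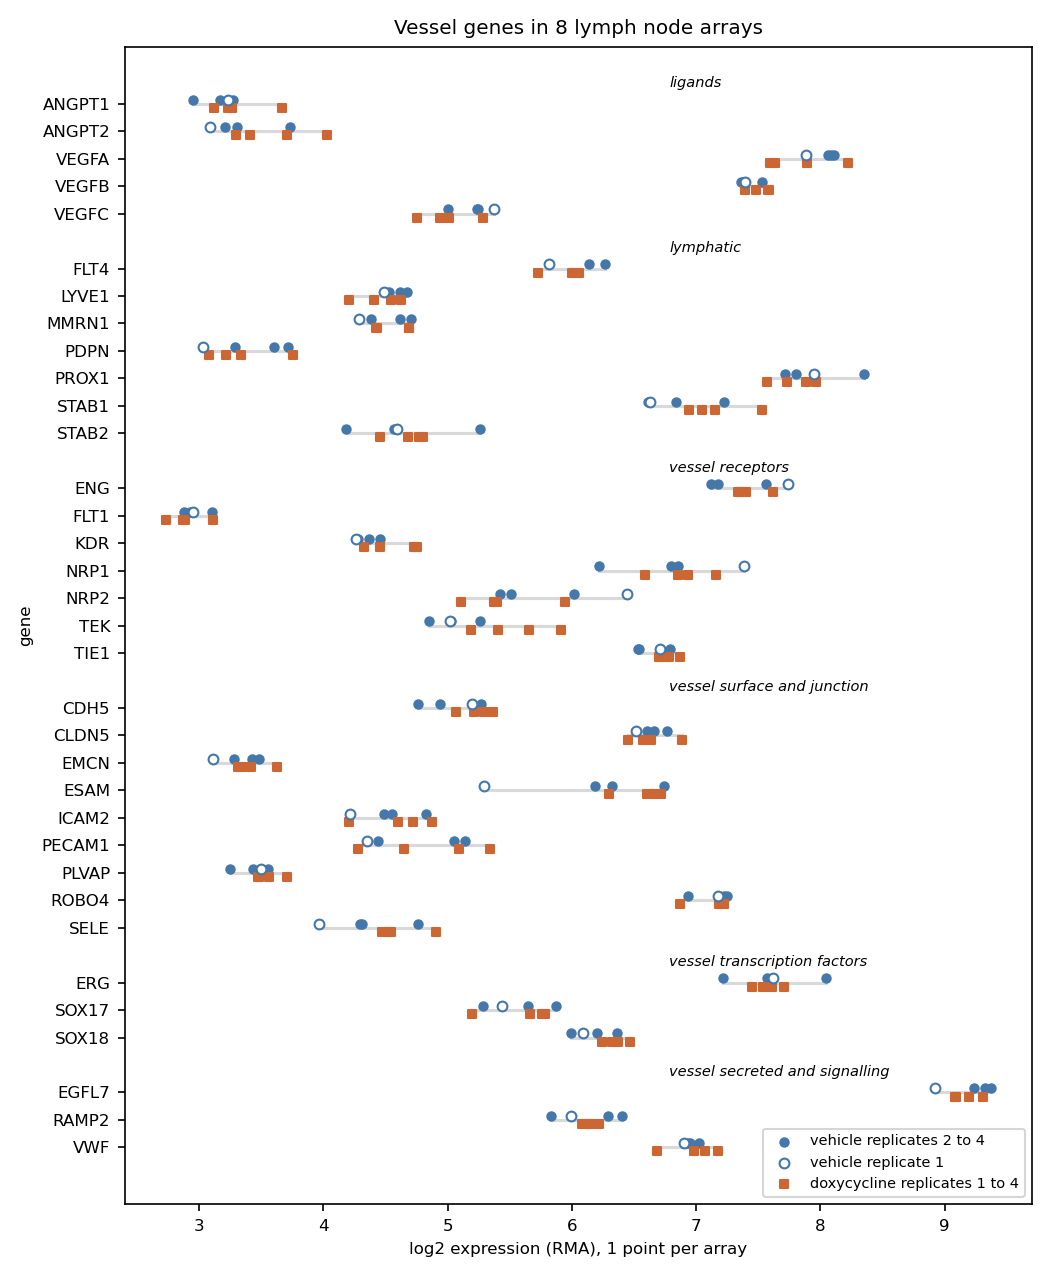
Log2 expression (horizontal axis) of the 34 measured vessel genes (rows, ordered by role) in each of the 8 arrays; blue circles are vehicle arrays, the open circle vehicle replicate 1, and orange squares doxycycline arrays. The groups overlap in every row, and the open circle is far below the other 7 points for ESAM and above them for NRP2.

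Vehicle replicate 1 stood apart from the other arrays before any comparison. Its correlation with the other 7 arrays across genes was 0.930 to 0.951, against 0.972 to 0.983 among those 7. The 9 measured markers of dedifferentiated melanoma, among them NT5E (9.15) and TGFBI (8.78), had a mean of 6.75 in this array and 5.33 to 5.78 in the other 7. The gap was uneven: NT5E and TGFBI had means of 5.28 and 4.74 in the other 7 arrays, whereas NGFR was at 7.33 against 7.35 and SOX9 at 6.58 against 6.86. The 9 measured melanoma and melanocyte genes had a mean of 4.93 in this array and 5.15 to 5.25 in the other 7. For 4 of the 9 it held the lowest value, or 44.4%, against 28.8% of all genes. MLANA was at 4.60 in it and at 5.63 to 6.21 in the rest. In the other direction, TYRP1 was at 4.34 against a mean of 4.19 in the other 7, and TYR at 3.82 against 3.75. TYR, which makes melanin, lay between 3.52 and 3.93 in all 8, below the array medians. As a check of the tissue label, 5 of 7 B lymphocyte genes lay above the array medians in all 8 arrays, among them CD79B at 8.37 to 9.00, while MS4A1 (3.21 to 3.87) and CR2 lay below in all 8. Of 10 T lymphocyte genes, 2 lay above in all 8 arrays, among them CD3E at 5.43 to 6.01, 7 lay below in all 8, among them CD3D at 3.40 to 4.32, and 1 lay on either side. Brightness depends on the probe, so these values do not settle the tissue. Leaving out vehicle replicate 1, 0 of 34 vessel genes passed (background 0% of all genes) and 1, again TEK, had an unadjusted p under 0.05 (background 4.91%). That is 1 gene with a difference above 0 (background 2.66%) and 0 genes with one below 0 (background 2.25%). The groups still overlapped for all 34 vessel genes, while they did not for 5.67% of all genes.

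Some vessel genes were extreme in vehicle replicate 1. NRP1, NRP2, ENG and VEGFC had their highest value of the 8 arrays there, which is 4 of 34 genes or 11.8%, against 15.2% of all genes. ESAM, SELE, EMCN, KDR, EGFL7, MMRN1, PDPN and ANGPT2 had their lowest value there, 8 of 34 or 23.5%, against 28.8% of all genes. Both shares were below those of all genes, but the sizes were uneven. The array minus the mean of the other 7 was -1.21 log2 units for ESAM and 0.91 for NRP2. The part that the high dedifferentiation markers of this array have in these values was not tested.

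The ligands were taken first. VEGFA, the main inducer of vessel growth and a hypoxia target, was at 7.88, 8.09, 8.11 and 8.06 in vehicle replicates 1 to 4 and at 7.64, 7.89, 8.22 and 7.60 in doxycycline replicates 1 to 4. Doxycycline replicates 1 and 4 lay below the vehicle range and replicate 3 above it, so the groups overlapped. The difference, doxycycline minus vehicle, was -0.20 ± 0.15 (SE) on the log2 scale, with an interval from -0.53 to 0.13 (limma adjusted p = 0.987), and it was -0.12 without doxycycline replicate 4 and -0.33 without replicate 3. VEGFC, the ligand of lymphatic growth, was at 5.37, 5.24, 5.002 and 5.23 with vehicle and at 5.01, 5.28, 4.75 and 4.94 with doxycycline. Its groups overlapped as well, with vehicle replicate 1 highest, and the difference was -0.22 ± 0.14 (SE), or -0.16 without that array and -0.13 without doxycycline replicate 3. VEGFB, a VEGFR1 ligand, stayed within 7.36 and 7.59 in all 8 arrays and differed by 0.09 ± 0.11 (SE).

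Both angiopoietins had dim probe sets, below the array median in all 8 arrays. ANGPT2, which endothelial cells release and which loosens vessels, was at 3.09, 3.73, 3.30 and 3.21 with vehicle and at 4.03, 3.71, 3.41 and 3.29 with doxycycline. Only doxycycline replicate 1 lay above the vehicle range, and the difference was 0.28 ± 0.18 (SE), or 0.14 without that array. ANGPT1, the stabilizing ligand made by mural cells, ranged from 2.95 to 3.67 over the 8 arrays and differed by 0.17 ± 0.14 (SE), a value of 0.05 without doxycycline replicate 3. Of the 5 measured ligands 3 had a difference above 0 and 2 below 0, and 0 passed. Their median difference was 0.09, against 0.02 over all genes. Without the dimmest 25% of genes, which removed ANGPT1 and ANGPT2, the median of the other 3 ligands was -0.20.

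Among the receptors, TEK alone had an unadjusted limma p under 0.05, which 3.8% of all genes also had. TEK encodes TIE2, the receptor of both angiopoietins. It was at 5.02, 4.85, 5.26 and 5.03 in vehicle replicates 1 to 4 and at 5.40, 5.19, 5.91 and 5.65 in doxycycline replicates 1 to 4. The 3 values of doxycycline replicates 1, 3 and 4 lay above all vehicle values, while doxycycline replicate 2 lay below vehicle replicate 3. The means were 5.04 ± 0.17 (SD, n = 4) and 5.54 ± 0.31 (SD, n = 4), and the difference was 0.50 ± 0.16 (SE) with an interval from 0.14 to 0.86. The unadjusted limma p was 0.00985, ranked 95 of 17491 genes, and the adjusted p was 0.987. The difference stayed between 0.38 and 0.62 with each array left out in turn and was 0.49 without vehicle replicate 1.

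TIE1, the partner receptor of TIE2 with no well-established ligand of its own, was at 6.71, 6.79, 6.53 and 6.54 with vehicle and at 6.78, 6.70, 6.71 and 6.87 with doxycycline. These values overlapped, and the difference was 0.12 ± 0.12 (SE). KDR, which encodes VEGFR2, the main signalling receptor for VEGF-A, was at 4.27, 4.46, 4.37 and 4.28 with vehicle and at 4.45, 4.32, 4.75 and 4.73 with doxycycline. Doxycycline replicates 3 and 4, the arrays with the highest TEK values, were also the highest for KDR, whose difference was 0.22 ± 0.13 (SE). FLT1, which encodes the decoy-like VEGFR1, had a dim probe set at 2.73 to 3.11 and differed by -0.06 ± 0.12 (SE).

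Upstream sequences of the 3 receptor kinases TEK, TIE1 and KDR are shown as a description of the human genes. They are the 120 bases before the most upstream start listed by RefSeq for GRCh38.p14, written 5′ to 3′ on the strand of the gene, at chr9:27109105-27109224 (plus strand), chr1:43300862-43300981 (plus strand) and chr4:55125596-55125715 (minus strand) in that order. Capitals mark GGAA, the core of sites for ETS factors such as ERG, or its reverse complement TTCC.
TEK: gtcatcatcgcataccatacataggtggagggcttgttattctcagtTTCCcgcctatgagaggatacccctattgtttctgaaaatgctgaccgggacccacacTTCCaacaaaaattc
TIE1: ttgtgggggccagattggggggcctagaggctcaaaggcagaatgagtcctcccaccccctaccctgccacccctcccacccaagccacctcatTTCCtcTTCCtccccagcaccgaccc
KDR: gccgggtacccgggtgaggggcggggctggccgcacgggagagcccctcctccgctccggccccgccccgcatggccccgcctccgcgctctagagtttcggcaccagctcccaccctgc
The core was found 2 times in the TEK stretch, 2 times in that of TIE1 and 0 times in that of KDR. On either strand, 73% of all 35116 stretches of this length in the table hold it, as do 19 of the 27 stretches of vessel genes. The MYC site CACGTG, its own reverse complement and without overlap with GGAA, was searched in windows of 300 bases around the starts of the 19 of 35 vessel genes found in the table. It was in 0 of their 27 windows, against 7.26% of all windows, and so few windows do not show a lack of the site. A match is a description of letters and not of binding, and the expression values do not bear on it. The sequences are human, whereas the vessels of the nodes are mouse tissue and Omomyc was to be made by the tumour cells.

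The neuropilins, co-receptors that present VEGF to the kinases and also bind semaphorins, had wide spreads. NRP2, found on veins, lymphatics and many tumour cells, was at 6.44, 6.01, 5.51 and 5.42 with vehicle and at 5.39, 5.38, 5.11 and 5.94 with doxycycline. Doxycycline replicates 1 to 3 lay below all vehicle values, and replicate 4 lay within them. The difference was -0.39 ± 0.23 (SE), the lowest of the 34 genes, with an interval from -0.90 to 0.12. It was -0.19 without vehicle replicate 1, whose value was the highest. NRP1 was at 7.38, 6.21, 6.86 and 6.80 with vehicle and at 6.59, 6.86, 6.93 and 7.16 with doxycycline. The 2 extremes of all 8 arrays were both vehicle arrays, and the difference was 0.07 ± 0.22 (SE), or 0.26 without vehicle replicate 1 and -0.13 without vehicle replicate 2. ENG, endoglin, a TGF-beta co-receptor of growing endothelium, ranged from 7.12 to 7.74 and differed by 0.03 ± 0.16 (SE), a sign that turned in 3 of the 8 fits with an array left out. Of the 7 vessel receptors, 5 had a difference above 0 and 2 below 0.

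Of the 9 surface and junction genes, 7 had a difference above 0 and 2 below 0, with a median of 0.10 and 0 past the threshold. Without vehicle replicate 1 the counts were 5 and 4 and the median was 0.03. ESAM, an adhesion molecule of endothelial junctions and platelets, was at 5.29, 6.19, 6.74 and 6.32 with vehicle and at 6.66, 6.61, 6.71 and 6.30 with doxycycline. The 4 doxycycline values lay inside the vehicle range, whose low end was vehicle replicate 1. The difference of 0.43 ± 0.25 (SE) was 0.15 ± 0.16 (SE) without that array and 0.63 without vehicle replicate 3. SELE, E-selectin, which activated endothelium shows to leukocytes, was at 3.96, 4.29, 4.76 and 4.31 with vehicle and at 4.54, 4.52, 4.91 and 4.48 with doxycycline. Doxycycline replicate 3 alone lay above the vehicle range, and the difference of 0.28 ± 0.17 (SE) was 0.16 without vehicle replicate 1.

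PECAM1, the CD31 antigen used to stain vessels, was at 4.35, 5.05, 5.14 and 4.44 with vehicle and at 5.09, 5.34, 4.65 and 4.28 with doxycycline. Each group held a high and a low pair, and the difference was 0.10 ± 0.24 (SE), with an SD of 0.41 and 0.47 in the groups. CDH5, VE-cadherin, was at 5.19, 4.94, 5.27 and 4.76 with vehicle and at 5.30, 5.36, 5.21 and 5.06 with doxycycline, a difference of 0.19 ± 0.14 (SE), or 0.10 without vehicle replicate 4. CDH5 and PECAM1 thus did not order the arrays alike: doxycycline replicate 4 was lowest of 8 for PECAM1 and above 2 vehicle arrays for CDH5. CLDN5, the tight junction claudin of endothelium, was at 6.64 in both groups, with an interval of the difference from -0.28 to 0.28. The guidance receptor ROBO4 (-0.02 ± 0.13 SE), the sialomucin EMCN (0.10 ± 0.13 SE), PLVAP, which forms the diaphragms of fenestrae (0.12 ± 0.12 SE), and the adhesion molecule ICAM2 (0.08 ± 0.17 SE) had intervals that all included 0. The sign of the ROBO4, ICAM2, PECAM1 and CLDN5 differences turned when single arrays were left out.

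The transcription factors of endothelial identity had small differences. SOX18, which lies upstream of PROX1 in lymphatic development, was at 6.09, 6.36, 6.20 and 5.99 with vehicle and at 6.24, 6.46, 6.32 and 6.37 with doxycycline. Doxycycline replicates 2 and 4 lay just above the vehicle range, and the difference was 0.19 ± 0.12 (SE). ERG, the ETS factor that maintains endothelial genes, ranged from 7.21 to 8.04 with vehicle and only from 7.45 to 7.71 with doxycycline. Its difference was -0.03 ± 0.16 (SE), and that of the arterial factor SOX17 was 0.04 ± 0.17 (SE). Both signs turned in some fits with an array left out.

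The remaining blood vessel genes were flat within the spread of the arrays. VWF, the clotting factor stored by endothelium and platelets, was at 6.90, 6.93, 6.95 and 7.02 with vehicle and at 7.18, 6.98, 7.07 and 6.68 with doxycycline. The vehicle values lay close together, with an SD of 0.05, while the doxycycline values lay on both sides of them, with an SD of 0.21. EGFL7, a secreted endothelial matrix protein, was at 8.92 to 9.37 with vehicle and 9.08 to 9.31 with doxycycline (-0.04 ± 0.13 SE). RAMP2, the partner of the adrenomedullin receptor, differed by 0.02 ± 0.14 (SE). Over all 22 blood vessel genes, 16 had a difference above 0 and 6 below 0, which is 72.7% above 0 against 55.5% of all genes, with a median of 0.07 against 0.02. Without vehicle replicate 1, 13 were above 0 and 9 below 0, 59.1% against 50.8% of all genes, and the median was 0.02 against 0.00.

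**Figure D2:**
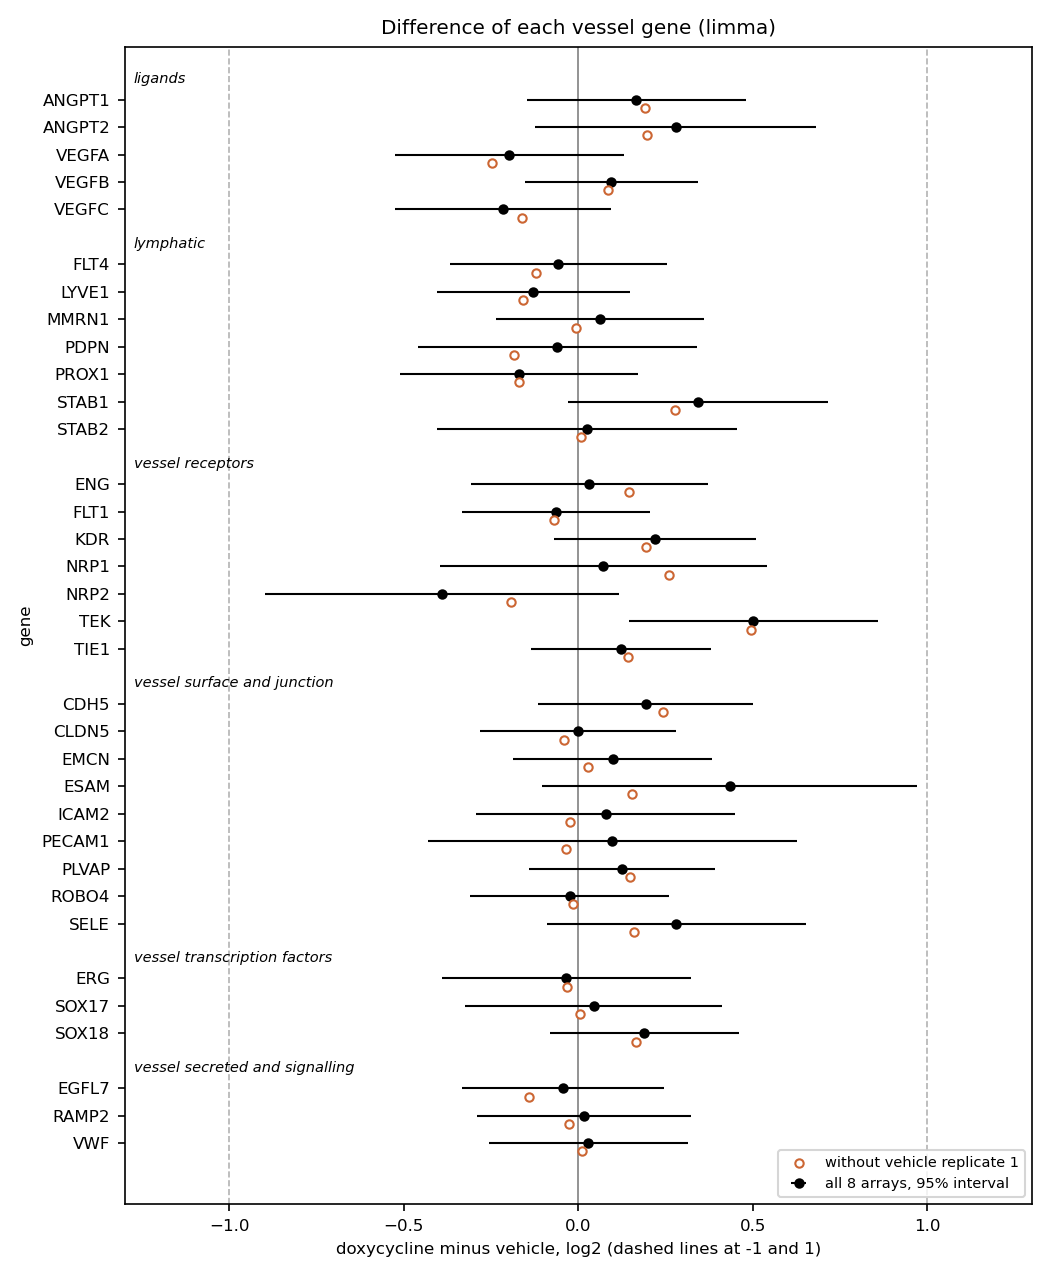
Difference of each vessel gene (doxycycline minus vehicle, log2, horizontal axis) with its 95% confidence interval from limma on all 8 arrays (black), and the difference without vehicle replicate 1 (open orange circles). The intervals lie between -0.90 and 0.97, inside the dashed lines at -1 and 1, and that of TEK alone leaves out 0.

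The 7 lymphatic genes had a median difference of -0.06, with 3 above 0 and 4 below 0 and 0 past the threshold, and the median was -0.12 without vehicle replicate 1. Its sign was not stable, as it reached 0.03 without doxycycline replicate 1 and 0.02 without vehicle replicate 2. PROX1, the factor that sets lymphatic identity, was at 7.95, 8.35, 7.81 and 7.72 with vehicle and at 7.57, 7.88, 7.73 and 7.96 with doxycycline. Vehicle replicate 2 was the highest array, doxycycline replicate 1 alone lay below the vehicle range, and the difference was -0.17 ± 0.16 (SE), or -0.04 without vehicle replicate 2. FLT4, which encodes VEGFR3, was at 5.82, 6.14, 6.26 and 5.82 with vehicle and at 6.06, 6.02, 5.999 and 5.72 with doxycycline. The groups overlapped almost wholly, and the difference was -0.06 ± 0.14 (SE) with an interval from -0.37 to 0.25.

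LYVE1, a hyaluronan receptor of lymphatic endothelium and of some macrophages, was at 4.49, 4.67, 4.53 and 4.61 with vehicle and at 4.62, 4.55, 4.21 and 4.41 with doxycycline. Doxycycline replicates 3 and 4 lay below the vehicle range, and the difference was -0.13 ± 0.13 (SE), or -0.05 without doxycycline replicate 3. PDPN, podoplanin, a mucin-like protein of lymphatic endothelium and of the reticular fibroblasts of nodes, had a dim probe set at 3.03 to 3.76 and differed by -0.06 ± 0.18 (SE). The mean of 10 fibroblast and reticular stroma genes was 5.75 to 5.92 with vehicle and 5.96 to 6.05 with doxycycline, with 8 differences above 0 and 0 past the threshold, and its part in the PDPN values was not tested. MMRN1, the matrix protein multimerin that lymphatic endothelium and platelets make, differed by 0.06 ± 0.14 (SE).

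STAB1 and STAB2 encode scavenger receptors of sinus endothelium, and macrophages also make STAB1. STAB1 was at 6.63, 7.22, 6.61 and 6.84 with vehicle and at 7.15, 7.53, 7.04 and 6.95 with doxycycline. Doxycycline replicate 2 lay above all vehicle arrays and the other 3 doxycycline arrays lay below vehicle replicate 2 but above the other 3 vehicle arrays. The difference was 0.34 ± 0.17 (SE), with an interval from -0.03 to 0.72 and an unadjusted limma p of 0.0672 (adjusted p = 0.987). The difference became 0.28 once vehicle replicate 1 was dropped and 0.22 once doxycycline replicate 2 was. STAB2, whose expression is largely limited to sinus endothelium, was at 4.59, 5.26, 4.57 and 4.18 with vehicle and at 4.46, 4.68, 4.77 and 4.80 with doxycycline, a difference of 0.03 ± 0.20 (SE). Of 12 macrophage markers, 8 had a difference above 0, which is 66.7% against 55.5% of all genes, or 7 without vehicle replicate 1. Their mean was 5.47 to 5.57 with vehicle and 5.60 to 5.64 with doxycycline. CD163, a scavenger receptor of macrophages, differed by 0.29 ± 0.12 (SE) and the complement receptor VSIG4 by 0.35 ± 0.17 (SE). The groups did not overlap for CD163, 1 of the 12 markers, against 2.62% of all genes. In the other direction, C1QA, a complement component, differed by -0.09 ± 0.14 (SE) and the lipopolysaccharide co-receptor CD14 by -0.08 ± 0.14 (SE). None of the 12 passed. The part of macrophages in the STAB1 values was not tested.

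**Figure D3:**
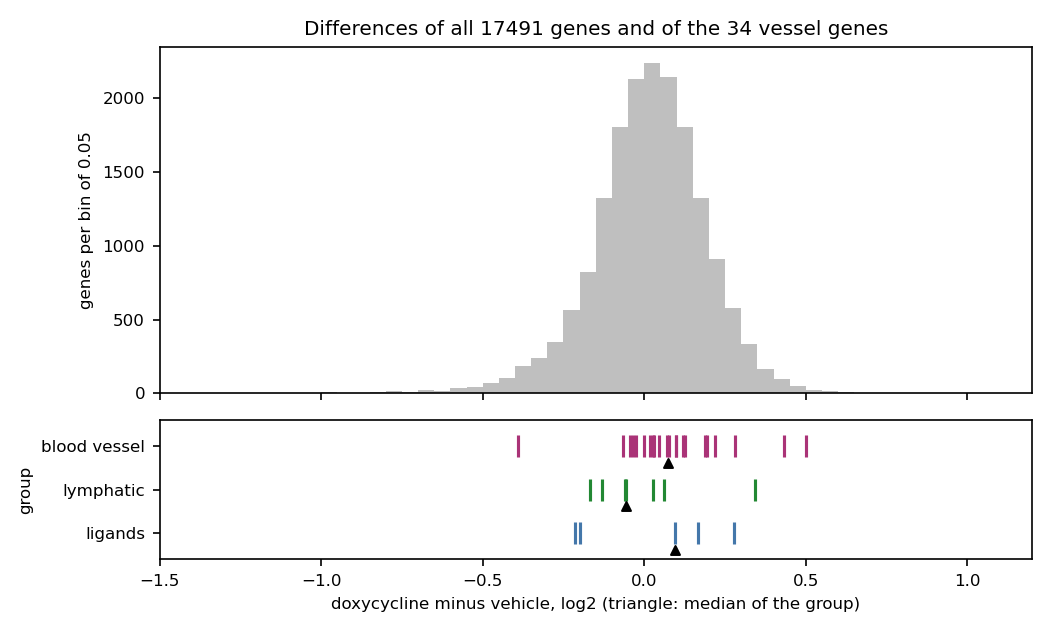
Upper panel, histogram of the difference (doxycycline minus vehicle, log2) of all 17491 genes in bins of 0.05, with 3 genes below the left edge; lower panel, the 34 vessel genes as ticks by group, with a triangle at each group's median. The medians lie at 0.07 for blood vessel genes, -0.06 for lymphatic genes and 0.09 for ligands, against 0.02 for all genes.

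Other genes of the same pathways were counted from lists drawn up by function. Of 36 further endothelial genes 22 had a difference above 0 and 14 below 0, and 0 passed. Among these, GPIHBP1, which holds lipoprotein lipase on capillaries, differed by 0.19 ± 0.11 (SE). Its groups did not overlap, which held for 1 of the 36 genes, against 2.62% of all genes. THBD, thrombomodulin, differed by 0.24 ± 0.17 (SE), or 0.09 without vehicle replicate 1. TFPI, the inhibitor of tissue factor, differed by -0.43 ± 0.28 (SE) and by -0.07 without vehicle replicate 1. Of 28 VEGF pathway partners 12 were above 0 and 16 below 0. In that list RCAN1, a calcineurin inhibitor induced by VEGF, differed by -0.22 ± 0.12 (SE) and the neuropilin ligand SEMA3F by 0.24 ± 0.15 (SE), or 0.15 without vehicle replicate 1.

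Of 18 Notch and artery-vein genes 8 were above 0 and 10 below 0. CXCR4, a chemokine receptor of arterial endothelium, lymphocytes and many tumours, differed by -0.35 ± 0.15 (SE), and the arterial connexin GJA4 by 0.16 ± 0.14 (SE), or 0.04 without vehicle replicate 1. Of 17 further lymphatic genes 7 were above 0 and 10 below 0. CCL21, the chemokine of lymphatic endothelium and node stroma, differed by 0.22 ± 0.15 (SE), the fatty acid receptor CD36 by 0.22 ± 0.16 (SE), the scavenging chemokine receptor ACKR2 by -0.23 ± 0.15 (SE) and the transcription factor MAF by -0.24 ± 0.18 (SE), or -0.40 without vehicle replicate 1. Of 12 genes of high endothelial venules 5 were above 0 and 7 below 0. In none of these 3 lists did a gene pass, and the medians were -0.03, -0.02 and -0.01.

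Of 19 hypoxia targets, the group to which VEGFA belongs, 8 had a difference above 0 and 11 below 0, with a median of -0.02, and 0 passed. Their directions differed from gene to gene. BNIP3, a mitophagy receptor, differed by 0.28 ± 0.15 (SE) and ANKRD37 by 0.23 ± 0.13 (SE), or 0.14 without vehicle replicate 1. DDIT4, an mTOR inhibitor, differed by -0.33 ± 0.16 (SE) and the stress gene NDRG1 by -0.25 ± 0.14 (SE). Without vehicle replicate 1 the count was 13 above 0 and 6 below 0. Of 13 angiogenesis inhibitors 6 were above 0 and 7 below 0, and 0 passed. SPARC, a matrix protein that binds collagen and VEGF, differed by 0.33 ± 0.15 (SE). COL18A1, the collagen from which endostatin is cut, differed by 0.27 ± 0.13 (SE). Its groups did not overlap, which held for 1 of the 13 genes, against 2.62% of all genes. In the other direction, ADAMTS1 differed by -0.24 ± 0.18 (SE) and THBS1 by -0.20 ± 0.16 (SE). The median of the list was -0.02.

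Markers of tissue around a node were set beside the TEK values. Of 11 pericyte and smooth muscle genes 8 had a difference above 0 and 3 below 0, with a median of 0.10. Without vehicle replicate 1 the counts were 5 and 6 and the median was -0.03. The mural receptor NOTCH3 differed by 0.21 ± 0.11 (SE), and its groups did not overlap, which held for 1 of the 11 genes, against 2.62% of all genes. DES, desmin, differed by 0.61 ± 0.19 (SE). Desmin is also a protein of skeletal muscle. All 9 skeletal muscle genes had a difference above 0, against 55.5% of all genes, and all 9 also without vehicle replicate 1, against 50.8%. MYH4, a fast myosin, differed by 0.80 ± 0.25 (SE) and MB, myoglobin, by 0.44 ± 0.18 (SE). For MB it was 0.29 without vehicle replicate 1. The mean of the 9 muscle genes was 5.98 to 6.69 with vehicle and 6.23 to 7.08 with doxycycline.

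Of 9 adipocyte genes 7 had a difference above 0, or 77.8% against 55.5% of all genes. Without vehicle replicate 1 it was 5, or 55.6% against 50.8%. FABP4, the fatty acid carrier of fat cells, differed by 0.58 ± 0.13 (SE) and the lipid droplet protein CIDEC by 0.62 ± 0.18 (SE). The groups did not overlap for 3 of the 9 genes, FABP4 and CIDEC included, against 2.62% of all genes. CIDEC differed by 0.42 without vehicle replicate 1. The lipid droplet protein PLIN1 differed by -0.13 ± 0.16 (SE) and CIDEA by -0.09 ± 0.24 (SE). The adipocyte mean was 5.42 to 5.84 with vehicle and 5.83 to 6.09 with doxycycline, and it was highest in doxycycline replicates 3 and 4, the arrays with the highest TEK values. The skeletal muscle mean had another order, with 7.08 in doxycycline replicate 1, 6.90 in replicates 2 and 3 and 6.23 in replicate 4. None of the 29 genes of these 3 lists passed. Platelet genes, which bear on VWF, MMRN1 and ESAM, had a mean of 5.44 in vehicle replicate 1 and 5.64 to 5.91 in the other 7 arrays. The part of these tissues in the vessel values was not tested.

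**Figure D4:**
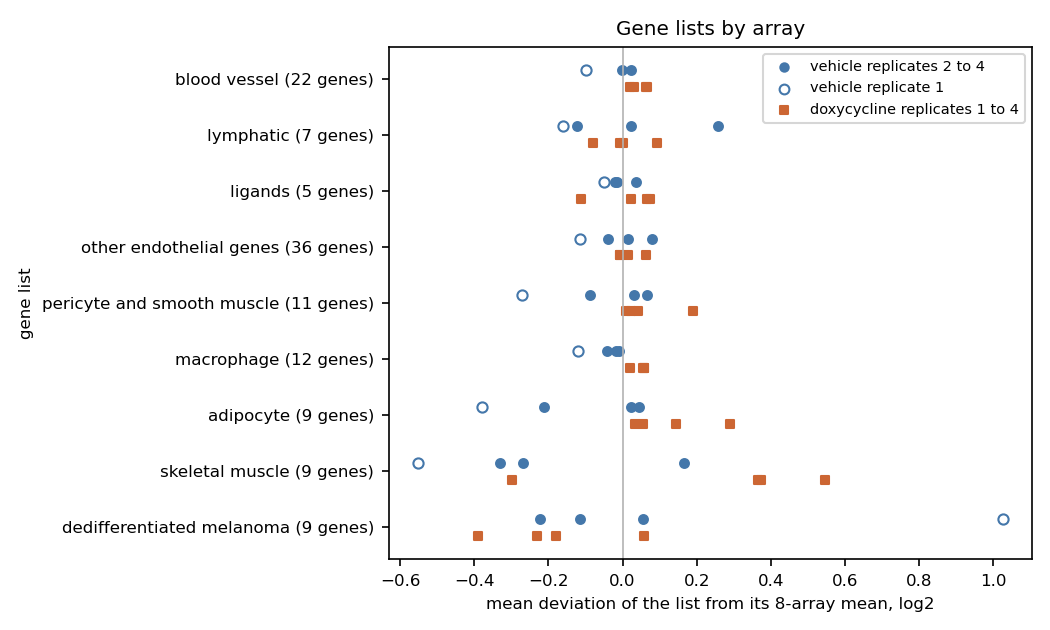
Mean deviation of each gene list from its own 8-array mean (log2, horizontal axis) in every array, for the 3 groups of vessel genes and 6 lists of other genes; symbols as in the plot of single genes, with vehicle replicate 1 open. The blood vessel mean of 22 genes lies between -0.10 and 0.07 in all arrays, and the macrophage mean of 12 genes between -0.12 and 0.06. The adipocyte, muscle and dedifferentiated melanoma means, of 9 genes each, span more: -0.38 to 0.29, -0.55 to 0.55 and -0.39 to 1.03. The ligand mean of 5 genes lies between -0.11 and 0.07, and the lymphatic mean of 7 genes between -0.16 and 0.26. A mean of fewer genes can vary more, and the part of list size in these spans was not tested.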

How the data were processed

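Values are log2 expression as the authors deposited it, and RMA is the method in the submitters' processing notes. Its version, the image analysis and any build remain not given in the sources used here. RMA makes array distributions alike, so values are relative, and array medians lay between 5.07 and 5.12. Precision is limited by the number of arrays.

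The table held 18565 probe sets, of which 17509 had 1 gene symbol, 0 had several and 1056 had none and were left out. The probe set with the highest mean was kept, which left 17491 genes, all matched to RefSeq. Groups came from the titles of the samples, called biological replicas, and p-values measure the spread between these samples. No slide or scan date was used here.

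Differences were fitted with limma 3.58.1 in R 4.3.3 over all genes, two-sided, without covariates, with Benjamini-Hochberg adjustment and a threshold of 0.05. The fitting script itself was tested on simulated data with known changes. These had independent noise, no outlying array and changes larger than those of the vessel genes, so the test does not cover differences as small as theirs. Genes and lists were chosen with earlier results of these data known. All 35 vessel genes are named, and other genes named come from the 2 per direction with the smallest p of each other list; NT5E, TGFBI, MLANA, TYR, NGFR, SOX9, CD79B, MS4A1, CR2, CD3E and CD3D serve the check of labels. Alternatives were a replicate block, 2 other scalings, removal of the dimmest 25%, array weights, probe set means, an unmoderated statistic and each array left out. Promoter stretches came from RefSeq (GRCh38.p14). Figures were drawn with matplotlib 3.10.9.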

Additional observations from a re-analysis of the deposited data

Results flagged for a closer look

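In groups of 4 arrays, a value was singled out where its gap to the nearest of the other 3, over the range of the group, exceeded Dixon's 95% critical value. Chance does this in about 1 of 20 groups, and 68 groups of vessel genes were looked at, of which 2 were singled out. ROBO4 was at 6.87 in doxycycline replicate 4, against 7.18 to 7.22 in the other 3 doxycycline arrays. SELE was at 4.91 in doxycycline replicate 3, against 4.48 to 4.54. With groups of other genes named here, 126 groups were looked at in all, at the same chance rate. These other genes were chosen as those with the smallest p of their lists. Among them, CIDEC was at 4.26 in vehicle replicate 1, against 4.996 to 5.09, and GPIHBP1 at 6.20 in the same array, against 6.36 to 6.38. DDIT4 was at 6.41 in doxycycline replicate 2, against 5.88 to 5.95, and RCAN1 at 5.44 in vehicle replicate 3, against 5.69 to 5.73.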

How the results depend on the processing

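In all 15 alternatives 0 vessel genes and 0 of all genes passed (limma, or its unmoderated statistic in 1 of them). With 1 array left out, 528 to 998 of all genes had an unadjusted limma p under 0.05, as did 1 to 3 of the 34 vessel genes. There were 3 vessel genes in each of the fits without vehicle replicate 2, vehicle replicate 3 or doxycycline replicate 4. In these fits 857, 998 and 573 of all 17491 genes had such a p. With the replicate number as a block, 734 genes and 2 vessel genes, TEK and STAB1, had an unadjusted p under 0.05, in place of 665 and 1, and 0 genes passed. Replicate numbers were shared between the groups, but the deviations of same-numbered arrays correlated at -0.05, 0.15, 0.09 and 0.00293 for numbers 1 to 4, so arrays were not taken as pairs. The ligand median moved from 0.09 to -0.20 without the dimmest 25% of genes, since ANGPT1 and ANGPT2 were then removed. Of 34 vessel genes, 19 kept their sign in every alternative. RAMP2 turned to -0.00121 under quantile normalization and SOX17 to -0.029 with array weights, for which the cause was not tested.

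With each array left out in turn, the difference crossed 0 for FLT4 (-0.12 to 0.028), PDPN (-0.20 to 0.042), STAB2 (-0.13 to 0.23), MMRN1 (-0.00754 to 0.13), NRP1 (-0.13 to 0.26), ENG (-0.061 to 0.14), PECAM1 (-0.070 to 0.28), CLDN5 (-0.083 to 0.060), ICAM2 (-0.024 to 0.21), ROBO4 (-0.095 to 0.058), ERG (-0.17 to 0.11), SOX17 (-0.048 to 0.18), EGFL7 (-0.14 to 0.0084), VWF (-0.038 to 0.13), RAMP2 (-0.082 to 0.11) and, among other genes named, CD14 (-0.20 to 0.00198) and CIDEA (-0.28 to 0.0787). The medians then ranged from 0.02 to 0.10 for blood vessel genes, 0.05 to 0.13 for ligands and -0.12 to 0.03 for lymphatic genes. The array count and the unmeasured mouse signal limit all these values.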
